A study of Danio rerio with 36 samples.

Results

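The interferon-response and immunoproteasome genes described here are 10 zebrafish genes, isg15, ifi27.2, mxa, rsad2, stat1a, stat1b, irf7, irf9, psmb8a and psmb9a. They were taken by gene symbol from the 32520 genes of the count tables, and all 10 were found. They were chosen by their counts in the 3-month brain, where isg15 and ifi27.2 had stood out between sgsh and wild type, so the values at 3 months, and the comparisons of 18 with 3 months, which use the same libraries, are given as a description without a test. The study asked how loss of sgsh, which encodes the lysosomal enzyme that is deficient in mucopolysaccharidosis type IIIA, alters gene expression. RNA sequencing was done on 36 libraries in 12 groups of 3.

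The groups were fish homozygous for the sgshΔex5-6 deletion (sgsh) and wild-type fish of the TU strain, as whole embryos at 24 hours post fertilization (hpf), heads at 5 days post fertilization (dpf), and whole brains at 2, 3 and 18 months. At 2 months, brains of sgsh and wild-type fish with the stable transgene Tg(-3.5ubb:mTagBFP2-T2A-sgsh) were sequenced as well, in which the ubiquitous ubb promoter drives sgsh. Each embryo or larval library pooled 50 animals and each adult library 3 brains. The paper describes exsanguination of adults under in situ hybridization, and freshly dissected brains under RNA sequencing. Whether fish with and without the transgene shared parents is not given in the sources used here. The libraries of a group are treated as replicates, and the p-values measure the spread between these pools.

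Interferons are secreted signals of infection. They bind receptors whose kinases activate transcription factors of the STAT family, which join IRF9 to switch on interferon-stimulated genes. IRF7 drives further interferon production in mammals. Among the induced genes, isg15 encodes a ubiquitin-like modifier, mxa a dynamin-like GTPase and rsad2 viperin, an enzyme that makes a chain-terminating nucleotide, all of them antiviral, while ifi27.2 belongs to a family of small interferon-induced proteins that lie as neighbouring copies. The products of psmb8a and psmb9a replace catalytic subunits of the proteasome to form the immunoproteasome, which shapes peptides for display on MHC class I molecules. In the brain these genes are best known from microglia, the resident macrophages. In zebrafish, psmb8a and psmb9a lie in the MHC class I region, which is carried as divergent haplotypes that hold different class I genes.

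The total count per library was 24761341 to 26038889 at 24 hpf, 17061799 to 17303538 at 5 dpf, 16200025 to 16594654 at 2 months, 21340728 to 24678514 at 3 months and 22177654 to 22511711 at 18 months. The sgsh count was lower in sgsh than in wild-type libraries at 5 dpf and at 2, 3 and 18 months without overlap, overlapped at 24 hpf (167 to 206 counts in sgsh embryos, 181 to 223 in wild type), and was 1834 to 3585 in the libraries with the transgene. Levels are counts scaled to the library total (CPM). The 5 dpf and 2-month libraries were counted separately and with strand, the others in a shared table with no stated strand setting, so tests were made within each set and levels are not comparable between the sets.

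Levels of the 10 genes spanned a wide range. Per length of transcript, as CPM divided by length in kilobases (RPKM), stat1a was the most abundant of the 10 genes in every group, with a mean of 16.8 RPKM in sgsh and 22.0 RPKM in wild-type heads at 5 dpf, and 43.2 RPKM in sgsh and 40 RPKM in wild-type brains at 18 months. The least abundant was mxa in every group from 5 dpf on, with 0.806 RPKM in sgsh and 0.422 RPKM in wild-type brains at 18 months. At 24 hpf the effector mxa had 7 to 11 counts per library in sgsh and 4 to 13 in wild-type embryos. The effectors isg15, ifi27.2 and rsad2 were almost absent. There, isg15 had 4 to 6 counts per library in sgsh and 3 to 6 in wild-type embryos, ifi27.2 had 1 to 3 and 1 to 4, and rsad2 had 0 to 1 in sgsh embryos, against 2 to 3 in wild type. Likewise stat1b had 1 to 3 counts in sgsh and 3 to 5 in wild-type embryos, and psmb8a 1 to 3 and 1 to 2. The transcription factors stat1a, irf7 and irf9, in contrast, were already expressed, with 15.9 to 18.3 CPM of stat1a in sgsh and 15.6 to 17 CPM in wild-type embryos.

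In the order of group means, neighbouring groups often could not be told apart. Among the 24 hpf, 3-month and 18-month groups, the 18-month sgsh brains had the highest mean for 9 of the genes, all but rsad2, and for irf9 alone of these its 3 libraries lay wholly above the next group. Of the 5 dpf and 2-month groups, the 5 dpf heads ranked first for every gene except psmb9a. There, isg15, ifi27.2 and rsad2 were highest in sgsh heads, whereas mxa, stat1a, stat1b, irf7, irf9 and psmb8a were highest in wild-type heads. For psmb9a the sgsh and wild-type brains at 2 months without the transgene ranked highest and overlapped each other.

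At 24 hpf none of the genes was called different between sgsh and wild-type embryos. Only mxa, stat1a, irf7, irf9 and psmb9a passed the filter on low counts, and none had an adjusted p under 0.05 in edgeR's quasi-likelihood test or in DESeq2, against 21.7% of all 20175 genes tested. Of these 5 genes, 1 had an unadjusted p under 0.05, psmb9a, with 0.969, 0.810 and 0.425 CPM in sgsh and 0.926, 1.12 and 1.34 CPM in wild-type embryos, where the groups overlapped. Of 25 other interferon-stimulated genes tested, 2 were called higher and 3 lower.

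At 5 dpf the genes differed in both directions. The antiviral effectors rsad2 and isg15 were higher in sgsh than in wild-type heads, whereas the signalling genes stat1a and irf9 and both immunoproteasome subunits were lower. In all, 2 of 10 genes were called higher and 4 lower, and the effectors mxa and ifi27.2 and the signalling genes stat1b and irf7 were not called. Over all 21627 genes tested the shares were 5.71% higher and 8.67% lower, and the median log2 fold change was -0.36 over the 10 genes and 0.00 over all genes.

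The largest difference was that of rsad2. It had 8.38, 19.4 and 7.34 CPM in sgsh heads, against 0.644, 1.05 and 1.58 CPM in wild-type heads. All sgsh libraries lay well above all wild-type libraries, and the second sgsh library was the highest. The fitted difference was 10.8-fold, with a log2 fold change of 3.43 ± 0.43 (SE) and an adjusted p of 0.000162 from edgeR's quasi-likelihood test. Without each library in turn it stayed between 2.85 and 3.8 and stayed called.

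For isg15, the ubiquitin-like modifier, the values were 6.47, 16 and 7.86 CPM in sgsh heads and 2.99, 5.57 and 5.90 CPM in wild-type heads. The groups did not overlap, but the nearest libraries differed little, and the same sgsh library was highest. The log2 fold change was 1.09 ± 0.31 (SE), with an adjusted p of 0.0316. This call was lost in DESeq2, where the adjusted p was 0.212, and on leaving out the second sgsh library, the first wild-type library or the second wild-type library, with log2 fold changes down to 0.59. The other effectors were not called. Here mxa had 1.21, 1.5 and 0.524 CPM in sgsh and 0.703, 1.82 and 1.93 CPM in wild-type heads, and ifi27.2 had 3.41, 5.15 and 4.37 CPM in sgsh and 1.17, 4.4 and 5.67 CPM in wild-type heads.

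The partner of the STAT proteins, irf9, had 12.7, 12.9 and 13.5 CPM in sgsh heads and 20.4, 20.9 and 25.8 CPM in wild-type heads. The sgsh libraries were close to each other and far below the wild-type ones, with a log2 fold change of -0.76 ± 0.09 (SE) and an adjusted p of 0.000144. For stat1a the values were 74.8, 71.0 and 78.1 CPM in sgsh and 90.3, 96.4 and 105.7 CPM in wild-type heads, a smaller difference without overlap (log2 fold change -0.37 ± 0.06, adjusted p = 0.000666). On chromosome 22 of the authors' tables stat1a (12798569 to 12826962) lies 1.27 Mb from sgsh itself. Its paralogue stat1b was not called (log2 fold change -0.06 ± 0.25). Nor was irf7, with 5.26, 6.30 and 5.48 CPM in sgsh and 5.56, 8.67 and 7.95 CPM in wild-type heads (adjusted p = 0.142).

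The immunoproteasome subunit psmb8a had 1.33, 1.27 and 1.86 CPM in sgsh heads, against 3.63, 5.22 and 6.25 CPM in wild-type heads. Every sgsh library lay below every wild-type library, the fitted sgsh level was 0.300 of the wild-type level, and the log2 fold change was -1.74 ± 0.23 (SE) with an adjusted p of 0.000224. For psmb9a the values were 0.867, 1.39 and 1.69 CPM in sgsh and 2.58, 2.75 and 3.45 CPM in wild-type heads, again without overlap (log2 fold change -1.13 ± 0.23, adjusted p = 0.00541). The annotation places psmb9a (chromosome 19, 7120380 to 7122373, plus strand) inside the span of psmb8a (7105838 to 7144548, minus strand), so their reads can be told apart by strand in these libraries but not with certainty in the table of the 24 hpf, 3-month and 18-month libraries. Moreover, psmb13a (7111779 to 7144585) overlaps psmb8a on the same strand, so the values of both are uncertain.

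**Figure D1:**
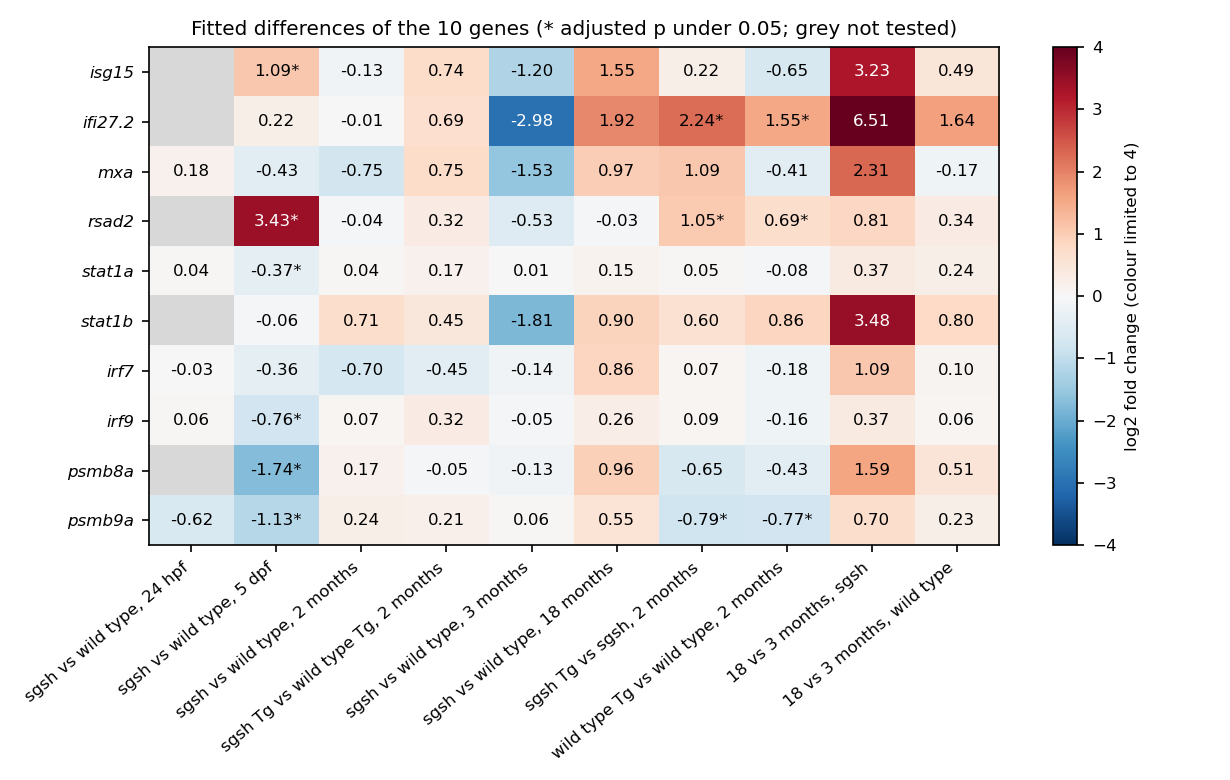
Fitted log2 fold changes of the 10 genes in 10 comparisons, the first named group over the second, with red for higher and blue for lower. Asterisks mark an adjusted p under 0.05, grey marks genes that did not pass the filter, and no asterisk is given at 3 months or for 18 against 3 months, since the 3-month libraries served to choose the genes. At 5 dpf 2 genes were called higher and 4 lower, and at 18 months none was called.

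Other genes of the pathway split in the same comparison. Of 36 other interferon-stimulated genes tested, 5 were called higher and 11 lower in sgsh heads. The genes with the largest differences included ifit8 and ifit14, relatives of the RNA-binding IFIT proteins, with 14 to 41 and 38 to 121 counts in sgsh heads and 0 to 4 and 3 to 12 counts in wild-type heads. Further Mx genes moved the other way, with 193 to 230 counts of mxc in sgsh and 624 to 1216 in wild-type heads, and 70 to 120 of mxf in sgsh and 316 to 584 in wild-type heads. Among 19 kinases, STATs and IRFs tested, 1 was called higher and 9 lower, among them irf8, a factor that macrophages need (log2 fold change -1.46 ± 0.15). Of 15 proteasome and activator genes tested, 4 were called lower and none higher, including psme1 and psme2, which encode the interferon-inducible activator (log2 fold changes -1.06 ± 0.16 and -1.13 ± 0.19), and psmb10, the remaining catalytic immunoproteasome subunit (-0.73 ± 0.09). Antigen presentation genes showed 2 of 21 higher and 13 lower, with tapbp.1, a tapasin that loads class I molecules, at -1.30 ± 0.14. The median log2 fold change was -0.16 over the other interferon-stimulated genes and -0.71 over the antigen presentation genes. Interferon receptor genes had 3 of 5 lower, and the interferon genes themselves did not pass the filter.

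Markers of macrophages were mostly lower in sgsh heads at 5 dpf. Of 23 microglia and macrophage markers, 13 were called lower and 2 higher in sgsh heads, with mpeg1.1 at a log2 fold change of -1.07 ± 0.17, and their summed level was 1068 to 1147 CPM in sgsh and 1243 to 1448 CPM in wild-type heads. The median log2 fold change of the markers was -0.49, and no marker of this list was at 0. Of 8 neutrophil markers 2 were called higher and 4 lower, with a median log2 fold change of -0.72, while their summed level, at 1278 to 1742 CPM in sgsh heads, against 1061 to 1523 CPM in wild-type heads, overlapped. Most macrophage markers shared the direction of stat1a, irf9, psmb8a and psmb9a, and not that of rsad2 and isg15. In libraries from whole heads or brains, fewer cells of a type and less RNA per cell cannot be told apart, and the part of macrophage or neutrophil number in the differences was not tested.

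At 2 months none of the 10 genes was called between sgsh and wild-type brains, either without or with the transgene. Without it no gene had even an unadjusted p under 0.05, DESeq2 called none, and 0.841% of all 19749 genes tested were called. The third sgsh library stood apart from the other sgsh libraries, with 10.9, 10.6 and 17.8 CPM of irf9 and 1.21, 1.60 and 3.59 CPM of psmb8a in sgsh brains, against 13.3, 11.9 and 12.4 CPM of irf9 and 2.37, 1.28 and 2.03 CPM of psmb8a in wild-type brains. That library also had 178 counts of mxc, where all other 2-month libraries had 12 to 26. With the transgene 0.0304% of all genes were called in edgeR, none of them among the 10, of which 1 had an unadjusted p under 0.05, ifi27.2, and DESeq2 likewise called none of the 10. Of the 10 genes, 4 (mxa, rsad2, stat1a and irf9) were higher in every sgsh Tg library than in every wild-type Tg library, where 6.11% of all genes were. The interaction of genotype and transgene was called for none of the 10 by edgeR or DESeq2, against 0.127% of all genes, and 1 gene, mxa, had an unadjusted p under 0.05.

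Brains with and without the transgene differed in 3 of the genes, in both genotypes. Shared parentage is not given, so for all 3 an effect of the transgene and a difference between families cannot be told apart. The effectors rsad2 and ifi27.2 were higher and psmb9a was lower in brains with the transgene. Of all genes tested, 8.85% were called higher and 9.51% lower in the sgsh background, and 6.79% and 8.45% in the wild-type background. Over the 10 genes the median log2 fold change was 0.16 in the sgsh and -0.17 in the wild-type background, and over all genes it was 0.00 and -0.00.

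Viperin's gene rsad2 had 8.92, 8.11 and 8.05 CPM in sgsh Tg brains, against 3.13, 4.11 and 4.93 CPM in sgsh brains. In the wild-type background it had 6.69, 6.15 and 7.35 CPM with the transgene, against 3.88, 3.83 and 4.79 CPM without. In neither background did the groups overlap, with log2 fold changes of 1.05 ± 0.16 (SE, adjusted p = 0.000543) and 0.69 ± 0.16 (adjusted p = 0.0102) from edgeR. Each single library could be left out without loss of either call.

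For ifi27.2 there were 49, 29 and 45 counts in sgsh Tg brains, against 5, 7 and 14 in sgsh brains. There were 18, 26 and 32 counts in wild-type Tg brains, against 8, 7 and 11 in wild-type brains. Every library with the transgene was above every library without it, with log2 fold changes of 2.24 ± 0.37 (adjusted p = 0.00104) and 1.55 ± 0.38 (adjusted p = 0.0156). The call in the wild-type background was lost without the first or second wild-type library or the third wild-type Tg library (adjusted p up to 0.0658). As the ifi27 genes are neighbouring copies of each other, reads may have been divided among them, and the next copy, ifi27.1, was also higher in sgsh Tg than in sgsh brains (log2 fold change 1.1). The remaining effectors were not called in either background.

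The immunoproteasome subunit psmb9a had 3.42, 2.93 and 2.70 CPM in sgsh Tg brains, against 4.46, 5.52 and 5.79 CPM in sgsh brains. In the wild-type background it had 2.88, 2.95 and 1.98 CPM with the transgene, against 4.91, 3.65 and 4.79 CPM without. The groups did not overlap, and the log2 fold changes were -0.79 ± 0.19 (adjusted p = 0.01) and -0.77 ± 0.19 (adjusted p = 0.0168). The call in the wild-type background was lost without the first or the third wild-type library or the third wild-type Tg library (adjusted p up to 0.0699). Its neighbour psmb8a was not called, with 2.08, 0.976 and 0.983 CPM in sgsh Tg and 1.21, 1.60 and 3.59 CPM in sgsh brains.

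**Figure D2:**
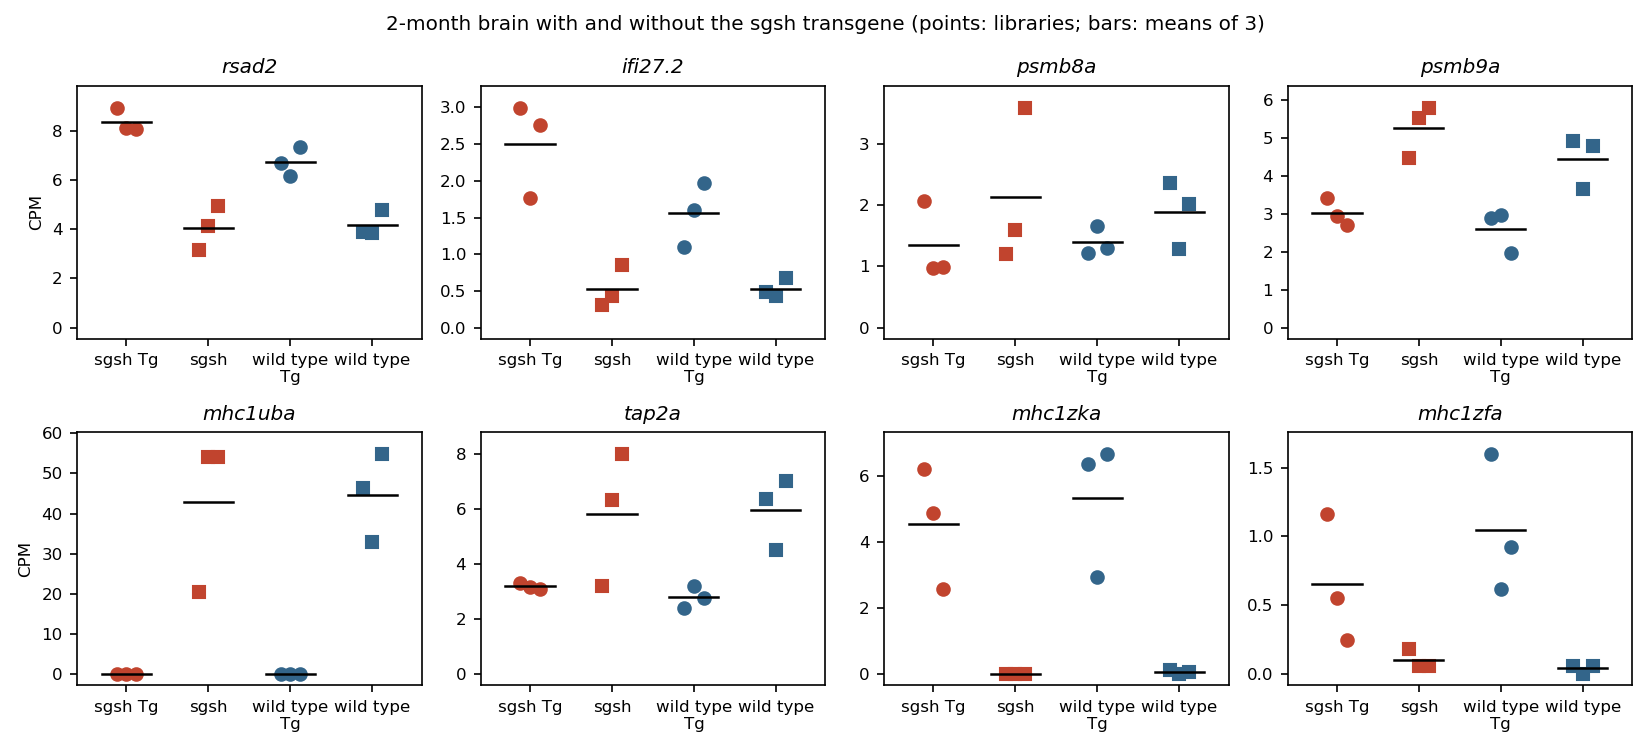
Levels in CPM of 4 of the 10 genes and of 4 antigen presentation genes in 2-month brain, with circles for libraries with the transgene, squares for libraries without it, and bars for means of 3. Libraries with the transgene are higher for rsad2, ifi27.2, mhc1zka and mhc1zfa, lower for psmb9a, and near 0 for mhc1uba.

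The class I gene nearest to psmb9a differed much more than psmb9a did. The end of mhc1uba (chromosome 19, 7072854 to 7101100) lies 19.3 kb from psmb9a. It had 2, 0 and 0 counts in sgsh Tg and 1, 0 and 0 in wild-type Tg brains, against 340, 883 and 890 in sgsh and 763, 539 and 891 in wild-type brains. A class I gene on an unplaced scaffold, mhc1zka, showed the reverse, with 102, 80 and 42 counts in sgsh Tg and 104, 48 and 108 in wild-type Tg brains, against 0 in each sgsh library and 2, 0 and 1 in wild-type brains. On chromosome 3, mhc1zfa had 4 to 19 counts in sgsh Tg and 10 to 26 in wild-type Tg brains, against 1 to 3 in sgsh brains and 0 to 1 in wild-type ones. Thus mhc1uba was at 2 counts or fewer with the transgene and mhc1zka at 2 counts or fewer without it, in both genotypes, whereas mhc1zfa was low in all groups.

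Around psmb8a and psmb9a, and counting both, 48 genes within 500 kb were tested at 2 months. In the sgsh background 10 were called lower and 3 higher with the transgene, where 18.4% of all genes were called either way, and in the wild-type background 5 were lower and 3 higher, where 15.2% were. Besides mhc1uba and psmb9a, the largest differences were those of kifc1, a kinesin (log2 fold changes -1.47 and -1.26 in the sgsh and the wild-type background), hsd17b8 (-1.17 and -0.80), psmb12, a proteasome subunit gene (-1.15, adjusted p = 0.0397, and -0.79, not called, adjusted p = 0.151), and tap2a, which encodes a subunit of the peptide transporter for class I molecules (-0.86 and -1.09). Levels of mhc1uba and mhc1zka split with the transgene in all 12 libraries. An effect of sgsh dosage on psmb9a and a difference in haplotype between families therefore cannot be told apart. Another class I gene of the region, mhc1uca, was not called (log2 fold changes -0.49 in the sgsh and 0.13 in the wild-type background). Summed microglia markers were 805 to 1087 CPM in sgsh Tg and 690 to 774 CPM in sgsh brains. In the wild-type background they were 795 to 886 CPM with the transgene and 707 to 758 CPM without. Of 23 markers, 5 were called higher and 1 lower in the sgsh background and 1 each way in the wild-type background. Their median log2 fold change was 0.16 in the sgsh background. In the wild-type background it was -0.11, and 14 of 23 markers lay below 0. The part of these markers in the rsad2 and ifi27.2 differences was not tested.

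**Figure D3:**
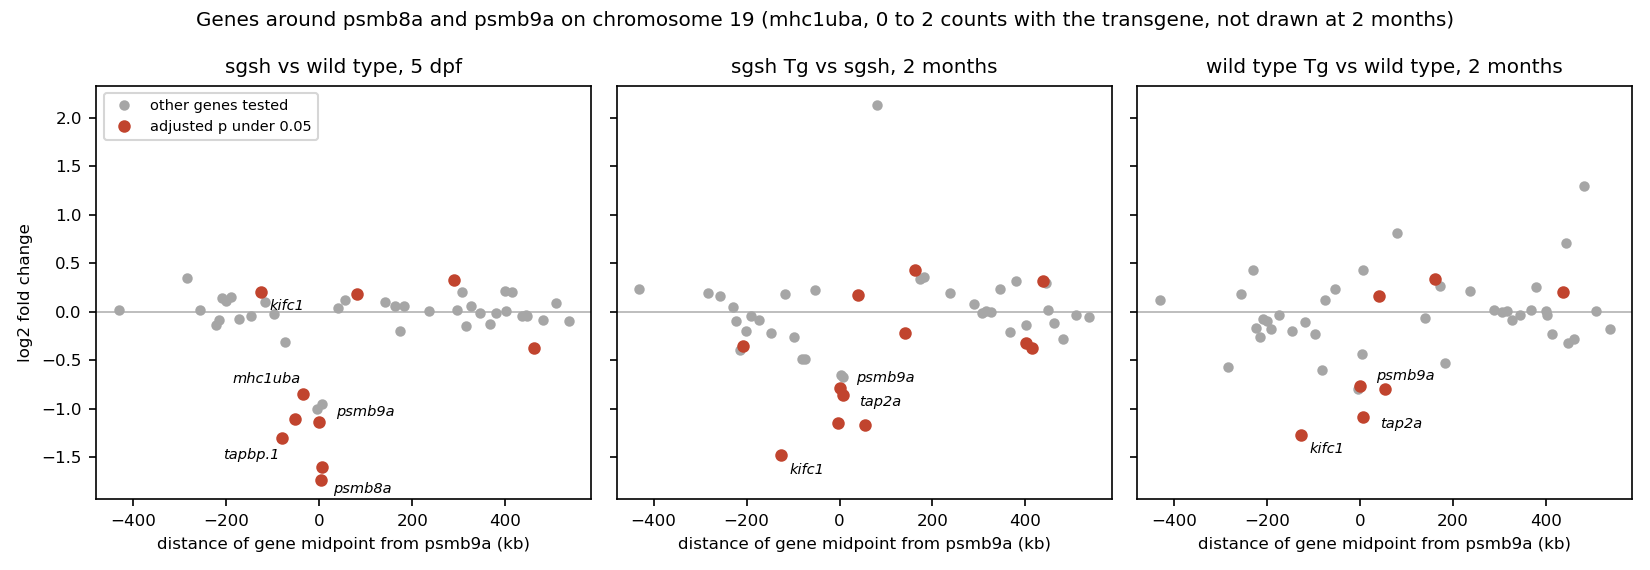
Log2 fold changes of genes within 500 kb of psmb8a and psmb9a, plotted against the distance of each gene's midpoint from that of psmb9a in kb. Red marks an adjusted p under 0.05. At 5 dpf tapbp.1, tapbp.2, mhc1uba, psmb9a, psmb8a and psmb13a were all lower in sgsh heads. At 2 months psmb9a and tap2a were lower with the transgene in both backgrounds, whereas brd2a, 40.4 kb from psmb9a, was higher in both.

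The same region was examined at 5 dpf. Of 48 genes tested there, psmb8a and psmb9a included, 7 were called lower and 3 higher in sgsh heads, where 14.4% of all genes were called either way. The called genes with the largest differences were psmb8a, psmb13a, tapbp.1, psmb9a, tapbp.2 and mhc1uba, all lower. Between them lie psmb12 and tap2a, which were not called (log2 fold changes -1.0 and -0.95, adjusted p = 0.0529 and 0.0807). Here mhc1uba was present in both genotypes, with 74, 89 and 100 counts in sgsh and 136, 146 and 192 in wild-type heads. Among class II genes, mhc2dab on chromosome 8 had 20, 21 and 20 counts in sgsh and 0, 1 and 0 in wild-type heads. In the adult brains without the transgene it was present or absent library by library, with 691, 3 and 0 counts in sgsh and 2, 289 and 362 in wild-type brains at 3 months, so its pattern at 5 dpf did not follow the genotype at other ages. Haplotypes of the pools were not determined. For psmb8a and psmb9a at 5 dpf, an effect of genotype and a difference in haplotype between the pools cannot be told apart.

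At 3 months, where the genes had been noticed, the effectors lay low in sgsh brains. The values were 4 to 9 counts of ifi27.2 in sgsh brains, against 27 to 75 in wild type, and 2.23, 1.88 and 2.11 CPM of isg15 in sgsh and 3.36, 2.57 and 8.64 CPM in wild-type brains. The groups did not overlap either for mxa, with 7 to 12 counts in sgsh brains and 15 to 48 in wild-type ones, for rsad2, with 6.31 to 8.95 CPM and 9.54 to 13.9 CPM, or for stat1b, with 1.22, 0.778 and 1.36 CPM in sgsh and 2.17, 1.73 and 8.11 CPM in wild-type brains. For isg15, mxa and stat1b the third wild-type library was far above the other wild-type libraries. Of the 10 genes, 5 were thus lower without overlap, where 15.7% of all genes were. As this comparison served to choose the genes, nothing is read from this count. The remaining genes overlapped, with 3.43 to 4.01 CPM of psmb9a in sgsh brains, against 3.02 to 3.90 CPM in wild type.

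By 18 months the spread between the pooled libraries of 1 group had become large, and none of the 10 genes was called between sgsh and wild type. Of all 20116 genes tested, 6.72% were called by edgeR, and DESeq2 likewise called none of the 10. Unadjusted p-values were under 0.05 for 5 of them, and 9 of 10 had a positive fold change, with a median log2 fold change of 0.88 over the 10 genes and 0.00 over all genes. These figures leaned on the third sgsh library, without which 7 of 10 were positive, the median was 0.18, and ifi27.2 and stat1b turned to -0.46 and -0.02. The groups did not overlap for 2 of the genes, mxa and irf9, both higher in sgsh, where 15.3% of all genes were.

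The third sgsh library had the highest value of all for most of these genes. For ifi27.2 there were 3.07, 6.86 and 67.4 CPM in sgsh brains and 6.00, 11.3 and 3.84 CPM in wild-type brains, so the third sgsh library was far above the rest and the first below every wild-type library. The same library led for stat1b, with 5.55, 7.66 and 24.2 CPM in sgsh and 4.58, 14 and 2.19 CPM in wild-type brains, and for psmb8a, with 4.82, 5.88 and 12.8 CPM in sgsh and 4.22, 5.3 and 2.90 CPM in wild-type brains. For isg15 the second and the third sgsh libraries were equally high, with 4.1, 26.8 and 26.7 CPM in sgsh and 4.98, 13.3 and 2.1 CPM in wild-type brains. Leaving out the first sgsh library, the lowest of its group for most of the genes, gave 3 calls, isg15, psmb8a and irf7, with log2 fold changes of 2.03, 1.23 and 1.18, whereas leaving out any other library gave none. The share of all genes called without that first library is not given here, and with every library it was 6.72%.

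The 2 genes whose groups did not overlap, irf9 and mxa, were not called either. For irf9 the levels were 15.4, 14.9 and 16 CPM in sgsh and 14.4, 13.2 and 12 CPM in wild-type brains (log2 fold change 0.26 ± 0.10, adjusted p = 0.130). The GTPase gene mxa had 39, 34 and 70 counts in sgsh and 31, 31 and 13 in wild-type brains (log2 fold change 0.97 ± 0.40, adjusted p = 0.153). Without the third sgsh library the log2 fold change was 0.58 for mxa and 0.23 for irf9. Elsewhere in the pathway, 2 of 35 other interferon-stimulated genes, gbp3 and parp12a, were called higher and none lower. Over all 20116 genes tested, 909 were called higher and 443 lower. Of 13 nucleic acid sensing genes 1 was called higher and none lower, ifih1, a sensor of double-stranded RNA (log2 fold change 1.14 ± 0.15). Of 18 antigen presentation genes 2 were called higher, led by the class I gene mhc1lda, with 68 to 121 counts in sgsh brains and 17 to 19 in wild-type ones. Microglia markers were higher too, 6 of 23 by test and none lower, and their summed level was 891 to 1054 CPM in sgsh brains and 594 to 686 CPM in wild-type ones, without overlap. Endothelial markers moved as well, with 5 of 11 called higher and none lower and sums of 243 to 256 CPM in sgsh brains, against 179 to 203 CPM in wild type. In the third sgsh library summed B cell markers were also high, at 32.4 CPM, against 4.85 and 4.91 CPM in the other sgsh and 3.26 to 7.06 CPM in the wild-type brains. The part of these cells in the values was not tested.

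Between 3 and 18 months most of the genes lay higher with age in sgsh brains. These comparisons use the 3-month libraries by which the genes were chosen, so they are a description and nothing is read from the counts. In sgsh brains 9 of 10 genes, all except irf7, were higher in every 18-month than in every 3-month library, where 16.4% of all 20608 genes were. In wild-type brains 2 of 10, ifi27.2 and stat1a, were, against 19.2% of all genes. The median log2 fold change over the 10 genes was 1.34 in sgsh and 0.29 in wild-type brains, and over all genes it was -0.02 and 0.01. Whether the change with age differs between genotypes was not tested, since that contrast contains the 3-month comparison.

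Among the signalling genes, stat1b had 5.55, 7.66 and 24.2 CPM in sgsh brains at 18 months and 1.22, 0.778 and 1.36 CPM at 3 months, a log2 fold change of 3.48, which was 2.57 without the third 18-month sgsh library. The antiviral gene mxa had 1.76, 1.51 and 3.12 CPM at 18 months and 0.284, 0.549 and 0.469 CPM at 3 months (2.31). For psmb8a there were 4.82, 5.88 and 12.8 CPM at 18 months and 2.31, 3.07 and 2.53 CPM at 3 months (1.59). In each of these the third 18-month library was the highest.

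Smaller differences were those of stat1a, with 187.3, 179.9 and 206.3 CPM in sgsh brains at 18 months and 145.7, 147.8 and 153.6 CPM at 3 months (log2 fold change 0.37), and of irf9 (0.37). In wild-type brains stat1a had 175.4, 184.5 and 171.1 CPM at 18 months and 147.5, 145.4 and 159.4 CPM at 3 months (0.24). For irf7 the ages overlapped in sgsh brains, with 6.13, 10.4 and 18.3 CPM at 18 months and 4.86, 5.31 and 6.37 CPM at 3 months (1.09). The log2 fold changes of rsad2 and psmb9a in sgsh brains were 0.81 and 0.70. For isg15 there were 4.1, 26.8 and 26.7 CPM in sgsh brains at 18 months and 2.23, 1.88 and 2.11 CPM at 3 months, and for ifi27.2 there were 68, 154 and 1511 counts at 18 months and 9, 6 and 4 at 3 months.

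Wider parts of the pathway were also higher in old sgsh brains. Of 35 other interferon-stimulated genes, 23 were called higher and 1 lower with age, where 9.87% of all genes were called higher and 9.6% lower, of 19 antigen presentation genes 15 higher and none lower, and of 17 kinases, STATs and IRFs 8 higher and 1 lower. In wild-type brains 6 of the interferon-stimulated genes were higher and 1 lower, 9 of the antigen presentation genes were higher and 1 lower, and 2 of the kinases, STATs and IRFs were higher and none lower, where 9.14% of all genes were called higher and 11.7% lower. These lists rest on the same 3-month libraries, so their counts are a description and nothing is read from them. The RNA sensor dhx58 had 110 to 201 counts in sgsh brains at 18 months and 21 to 37 at 3 months, and stat2, a transcription factor of the pathway, had 1556 to 2740 and 716 to 746. Both the interferon-inducible activator genes, psme1 and psme2, and psmb10 were higher in sgsh brains (log2 fold changes 0.77, 0.74 and 0.43). Of 15 proteasome and activator genes 5 were called higher and 1 lower in sgsh brains, and none higher and 7 lower in wild-type brains. The constitutive catalytic subunits psmb5 and psmb7 were not called in sgsh brains (-0.10 and -0.13) and were lower at 18 months in wild-type brains (-0.32 and -0.35).

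Markers of microglia moved with age as well. In sgsh brains 20 of 23 were called higher at 18 months and none lower, with summed levels of 891 to 1054 CPM at 18 months and 695 to 712 CPM at 3 months. In wild-type brains 6 were called higher and 1 lower, with 594 to 686 CPM at 18 months and 569 to 689 CPM at 3 months. Of 12 T and NK cell markers 5 were called higher and 1 lower in sgsh brains, with sums of 236 to 272 CPM at 18 months and 258 to 267 CPM at 3 months, and 1 was called higher in wild-type brains. Of 4 B cell markers 2 were called higher in sgsh brains and none in wild-type brains. These marker counts also rest on the 3-month libraries and are a description. The part of these cells in the higher values was not tested. Both age comparisons share no library with each other, but each shares its 18-month and 3-month libraries with the comparisons of genotype.

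Within groups the 10 genes varied together from library to library. Over the 36 libraries, the deviations of log2(CPM + 0.5) from the group means had a Pearson r above 0 for all 45 pairs, with a median of 0.57 and a range of 0.08 to 0.81, and over the 24 brain libraries alone the median was 0.59. These correlations are a description, and no test was made of them. No other gene pairs were set beside them, and the weight of single libraries in them was not tested. The closest pairs included 0.81 for stat1a and psmb8a, 0.81 for stat1a and irf9, 0.80 for ifi27.2 and stat1b, 0.79 for rsad2 and stat1b, and 0.77 for isg15 and rsad2. With psmb8a, stat1b gave 0.76, ifi27.2 gave 0.75 and irf9 gave 0.68, while stat1a with isg15 gave 0.12 and mxa with psmb9a 0.08.

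The libraries that deviated most in the mean over the 10 genes were the third sgsh library at 18 months, by 2.03 SD, and the first of that group, by -1.59 SD. Next came the third sgsh library at 2 months (1.41) and the first wild-type library at 5 dpf (-1.30). High and low libraries occurred in both genotypes, as the 18-month wild-type libraries ran from -1.22 to 1.16. The microglia markers, scored in the same way, followed the 10 genes with an r of 0.75 over 36 libraries and 0.78 over the 24 brain libraries, most closely psmb8a (0.83) and least mxa (0.25). Of 19313 named genes with a mean of at least 1 CPM, those most like the mean of the 10 were cd68, a lysosomal protein of macrophages (0.88), ifi27.1 (0.87), xaf1 (0.86) and ifi44a1 (0.86), which are interferon-inducible, and apbb1ip, an adaptor of blood cell integrins (0.84).

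**Figure D4:**
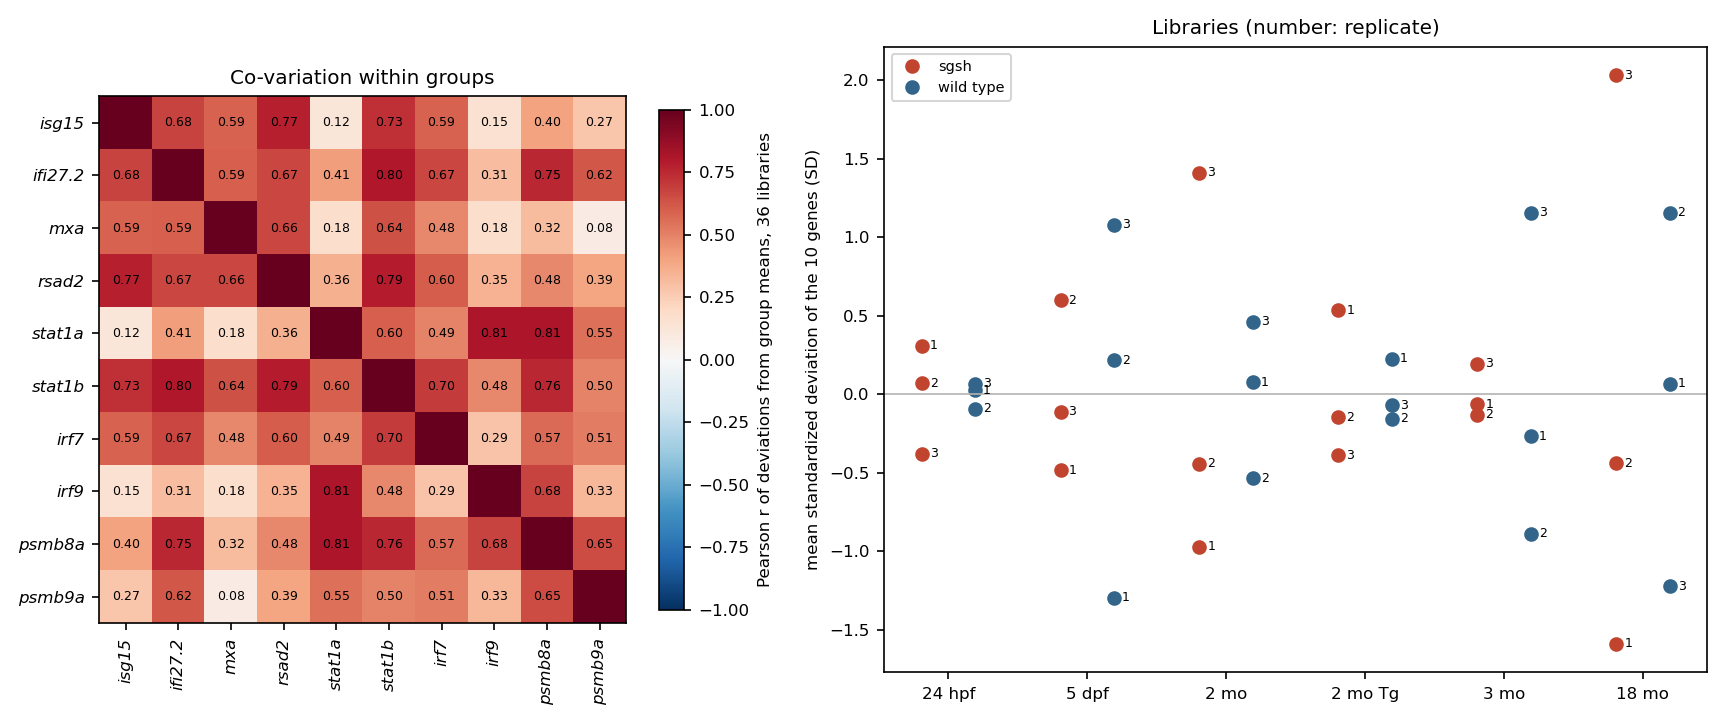
Left, Pearson r between the 10 genes for deviations from group means of log2(CPM + 0.5) over 36 libraries. Right, the mean standardized deviation of the 10 genes in each library, in SD, with sgsh left of wild type at each stage and numbers for replicates. All 45 pairs lie above 0, and the third sgsh library at 18 months is the highest at 2.03.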

How the data were processed

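RNA was sequenced from 36 libraries in 12 groups of 3. The authors deposited raw read counts per gene, with 1 table for the 24 hpf, 3-month and 18-month libraries and a file per library for 5 dpf and 2 months. Per the file headers the files per library were made with featureCounts 2.0.1 on paired, reverse-stranded reads with a mapping quality of at least 10, and for the table the strand setting is not given in the sources used here. The submitters' processing notes name HISAT2, Bowtie2, RSEM and GRCz11, whereas the study's methods name SOAPnuke, HISAT2, Bowtie2, Salmon and DESeq2. The build of the coordinates is not stated in the files.

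Genes were filtered with filterByExpr (minimum count 10, minimum total 15), scaled by TMM and tested with edgeR 4.0.16 (R 4.3.3, quasi-likelihood, two-sided), with Benjamini-Hochberg adjustment over all genes tested and a threshold of 0.05. A gene is called when its adjusted p is under that threshold. Tests stayed within a set of libraries counted together. Alternatives were DESeq2 1.42.0, other scalings and filters, a threshold of 0.01, a replicate block, fits of the 6 compared libraries, and leaving out each library. The procedure was tested on simulated data. The 10 genes, the gene lists and the tests were chosen with earlier results of these data known. The text describes all 10 genes, and of the other lists the called genes with the largest changes were named. No pair of libraries was a duplicate, the lowest chi-square per gene being 2.12. Sequences are not shown.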

Additional observations from a re-analysis of the deposited data

Results flagged for a closer look

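Several genes had genotype groups that did not overlap in opposite directions at different ages. For isg15 the log2 fold change of sgsh over wild type was 1.09 at 5 dpf and -1.20 at 3 months, and for rsad2 it was 3.43 at 5 dpf, -0.53 at 3 months and 0.32 at 2 months with the transgene. For stat1a it was -0.37 at 5 dpf and 0.17 at 2 months with the transgene. For irf9 it was -0.76 at 5 dpf, 0.26 at 18 months and 0.32 at 2 months with the transgene. For mxa it was -1.53 at 3 months, 0.97 at 18 months and 0.75 at 2 months with the transgene. The 3-month values were among those by which the genes were chosen, so they stand here as a description. For isg15 the opposite direction rests on 3 months alone. Apart from 3 months, only the 5 dpf values were called, and the isg15 call there was lost in DESeq2. Of all genes, 15.3% were higher without overlap at 18 months and 6.11% at 2 months with the transgene. How many of all genes had opposite directions was not counted. These differences between ages were not tested. The ages also differ in tissue or in how the reads were counted, except 3 and 18 months, which are both brain and were counted together.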

How the results depend on the processing

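No called value of the 10 genes changed direction under the alternatives run for it. Values that were not called did, among them ifi27.2 and stat1b at 18 months and irf9, psmb8a and stat1a at 2 months without the third sgsh library of that age, which left medians over the 10 genes of 0.18 and -0.22. At an adjusted p under 0.01 the count of called genes was 0 for the transgene in wild type. For 18 against 3 months, where isg15 and ifi27.2 were left out of the count, it was 3 in sgsh and 0 in wild type. Leaving out 1 library gave 0 to 0 called genes at 24 hpf, 5 to 6 at 5 dpf, 0 to 3 at 18 months, 0 to 0 at 2 months without and 0 to 0 with the transgene, 3 to 5 for the transgene in sgsh, 1 to 3 in wild type, 0 to 0 for the interaction, 4 to 8 for 18 against 3 months in sgsh and 1 to 1 in wild type. The 5 genes with the transgene in sgsh came without the third sgsh library, and the 1 gene in wild type without the first wild-type or the third wild-type Tg library. Counts of called genes among the 10 are not given for 18 against 3 months, since the 3-month libraries served to choose the genes. Of 192 gene values without 1 library, 178 kept and 14 lost their call. This tally includes values for 18 against 3 months of genes other than isg15 and ifi27.2. Nothing is read from it for that comparison.

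Over all genes, DESeq2 called 2590 genes at 24 hpf where edgeR called 4369, 1872 and 3110 at 5 dpf, 2101 and 1352 at 18 months, 274 and 166 at 2 months, 24 and 6 with the transgene, and 109 and 25 for the interaction. Without a filter the interaction had 51. Fits of 6 libraries called 94 at 2 months, 12 with the transgene and 2273 for age in sgsh, where the shared fit called 4013. The causes were not tested.

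The samples were not treated as paired by replicate number, since no comparison had all 3 correlations of same-numbered samples above 0.1. With a replicate block 6 of the 10 genes were called at 5 dpf and no call of the 10 genes changed, while the count over all genes at 18 months was 290. At 5 dpf and at 2 months without the transgene all 6 samples correlated best with their own number, and at 3 months 5 of 6 did. Whether same-numbered samples shared a batch was not tested.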
